A study of Arabidopsis thaliana with 3 samples.

Results

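The mRNAs described here are the nuclear transcripts for the photosynthetic electron transport chain and its smaller antennae in wild-type flowers of Arabidopsis thaliana, ecotype Col-0. The list held 48 genes chosen by locus identifier: 13 for photosystem I, 13 for photosystem II, 7 for electron carriers, 2 for the chloroplast ATP synthase, 6 for the photosystem I antenna LHCI and 7 for the LHCB proteins other than LHCB1 and LHCB2. They were taken from the 16577 locus identifiers of a TAIL-seq table. In TAIL-seq an adapter is joined to RNA 3′ ends and read pairs are sequenced, the first read naming the mRNA and the second giving its poly(A) tail and any nucleotide added after it. The 3 libraries were biological replicates of 1 group of untreated wild-type plants grown on soil, and no mutant, transgene or treatment was compared.

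Of the 48 mRNAs, 47 had at least 1 read, 44 had at least 20 pooled reads and could be tested, and 31 had at least 100. LHCB7 (AT1G76570) had no read in any library, which allows up to 0.00135%, 0.00264% and 0.00281% of the reads of replicates 1, 2 and 3. PETE1, LHCA5 and LHCA6 had 12, 11 and 9 pooled reads and were not tested. The list took 7081 of 222681 reads in replicate 1, 4272 of 113458 in replicate 2 and 4857 of 106777 in replicate 3, or 3.18%, 3.77% and 4.55%. The libraries differed in composition: 22 mRNAs that the study followed by 3′RACE-seq, of which 3 (PSBW, PSAP and PSAD1) are on the list, took 1.58%, 29.2% and 23.2% of all reads in replicates 1, 2 and 3. Without these 22 the share of the list was 2.95%, 5.14% and 5.65%. In this bulk tissue the number of green cells and the mRNA per cell cannot be told apart, and no other tissue was compared. All 7 floral organ identity mRNAs looked for were found, with 8 to 211 pooled reads, as were the 3 tapetum and pollen coat mRNAs, with 75 to 974. The read names place replicate 1 on a sequencing run of its own and the other replicates together on a different one, so that replicate 1 and its run cannot be told apart.

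Photosystem II takes electrons from water, the cytochrome b6f complex and plastocyanin pass them to photosystem I, and ferredoxin and its reductase deliver them to NADP. LHC proteins hold the chlorophylls that feed light energy to both photosystems. Part of this machinery is encoded in the chloroplast, but all subunits described here are nuclear genes whose mRNAs are translated in the cytosol and carry a poly(A) tail. As such an mRNA ages its tail is shortened, and the terminal uridylyltransferase URT1 adds uridines (U) to tails that have become short, called oligo(A) tails. Uridylation is the percentage of reads of an mRNA with at least 1 added U.

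The tails themselves show what was counted. The following are tails read 5′ to 3′ as RNA, with the poly(A) stretch in lower case and the added Us in capitals. Plastocyanin PETE2 and the antenna protein LHCA4 are shown as the list's most frequently read mRNAs, and PSB27 because it carried the longest U extension read in the list.
PETE2, most frequent tail without added nucleotides: aaaaaaaaaaaaaaaaaaaa
PETE2, most frequent uridylated tail: aaaaaaaaaaaaaaaU
PETE2, most frequent tail with 2 Us: aaaaaaaaaaaaaaUU
LHCA4, most frequent tail without added nucleotides: aaaaaaaaaaaaaaaaaaa
LHCA4, most frequent uridylated tail: aaaaaaaaaaaaaaaaaU
LHCA4, most frequent tail with 2 Us: aaaaaaaaaaaUU
PSB27, longest U extension: aaaaaaaaaaUUUUU

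The plain PETE2 tail has 20 As and was read 116 times among 1662 PETE2 tails without added nucleotides. The uridylated form has 15 As and was read 10 times among 114 uridylated PETE2 reads. The corresponding LHCA4 tails have 19 As, read 70 times of 1267, and 17 As, read 15 times of 115. In both mRNAs the most frequent uridylated tail was shorter than the most frequent plain tail. The PSB27 tail with 10 As and 5 Us was a single read among 54.

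Photosynthetic electron transport and antenna mRNAs were uridylated less than the sum of all other mRNAs, but not less than other mRNAs with at least 100 pooled reads. Replicates 1, 2 and 3 had 4.60%, 7.30% and 8.17% of the reads of the list uridylated, with Wilson 95% intervals of 4.14 to 5.12, 6.56 to 8.12 and 7.44 to 8.98, a mean of 6.69% ± 1.86 (SD, n = 3). All other mRNAs had 7.50%, 10.1% and 11.8%, a mean of 9.78% ± 2.16 (SD, n = 3). The list was lower in 3 of 3 libraries, by 3.09 ± 0.46 percentage points. Its level was 0.678 ± 0.058 of that of the other mRNAs, a difference larger than its spread between libraries. Such intervals cover counting error only, and the smallest p that an exact sign-flip test of 3 libraries can give is 0.25.

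The comparison with other mRNAs of at least 100 pooled reads was added after the data were seen. Other mRNAs with at least 100 pooled reads, without the 22 3′RACE-seq mRNAs, were uridylated at 6.45% ± 1.86 (SD, n = 3). The list exceeded them by 0.17, 0.48 and 0.08 percentage points in replicates 1, 2 and 3. In this comparison the list kept its own mRNAs with under 100 reads and its own 3′RACE-seq mRNAs. The difference from the sum of all mRNAs was thus not found against other mRNAs with at least 100 reads. Over mRNAs with at least 100 pooled reads, the median uridylation was 6.37% for the 31 on the list and 5.60% for all 728. Over mRNAs with at least 20 reads it was 6.21% for the 44 on the list and 8.00% for all 3439.

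**Figure D1:**
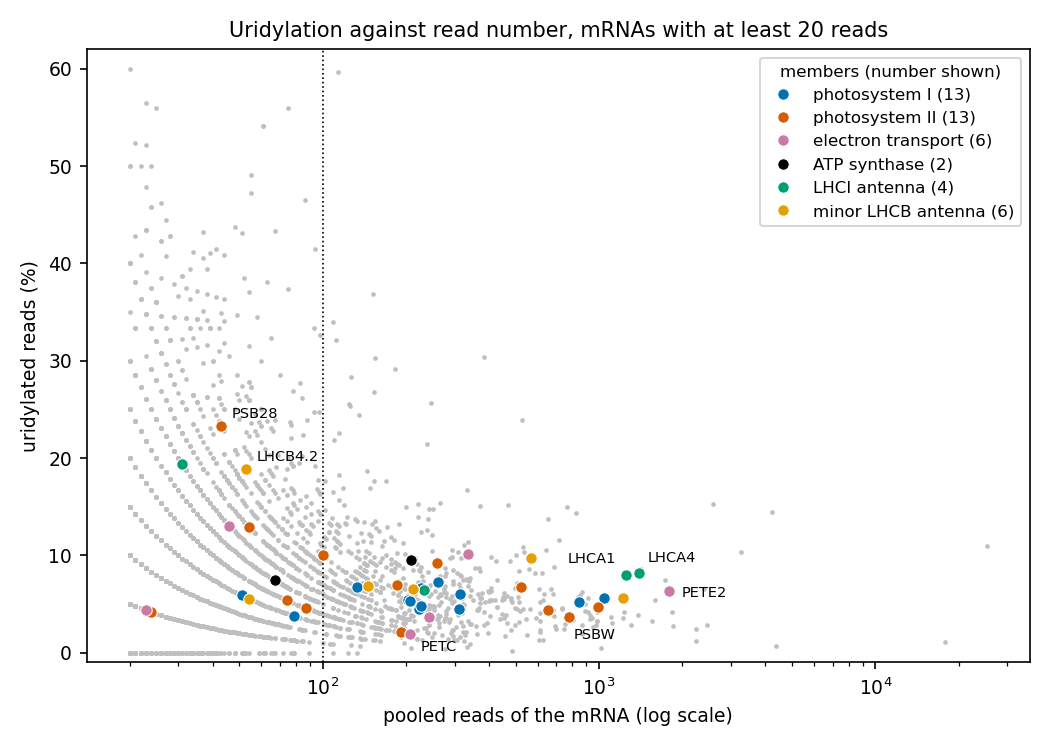
Uridylation (y axis, % of pooled reads) against the number of pooled reads (x axis, log scale) of each mRNA with at least 20 reads. Grey points are other mRNAs, coloured points the 44 mRNAs of the list by complex, and the dotted line marks 100 reads. To the right of it the coloured points lie between 1.93% and 10.1%, among the grey ones.

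Poly(A) tails of the list were of ordinary length. The median number of As in tails without added nucleotides was 26, 22 and 23 in replicates 1, 2 and 3, against 26, 22 and 22 for all other mRNAs. The means were 23.7 ± 2.1 and 23.3 ± 2.3 As (SD, n = 3), which differed by less than the spread between libraries. Tails of 10 to 25 As made up 57.4% ± 7.9 of plain tails in the list and 55.2% ± 7.5 in the others. Excessively deadenylated tails of under 10 As were fewer, 0.903% ± 0.152 against 2.27% ± 0.91, or 1.53% ± 0.52 in the other mRNAs with at least 100 reads. In replicates 1, 2 and 3 the list had 0.879%, 0.764% and 1.07%. All other mRNAs had 1.26%, 2.55% and 3.01%, and those with at least 100 reads 0.945%, 1.72% and 1.93%. Both differences were smallest in replicate 1, which was on a run of its own.

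**Figure D2:**
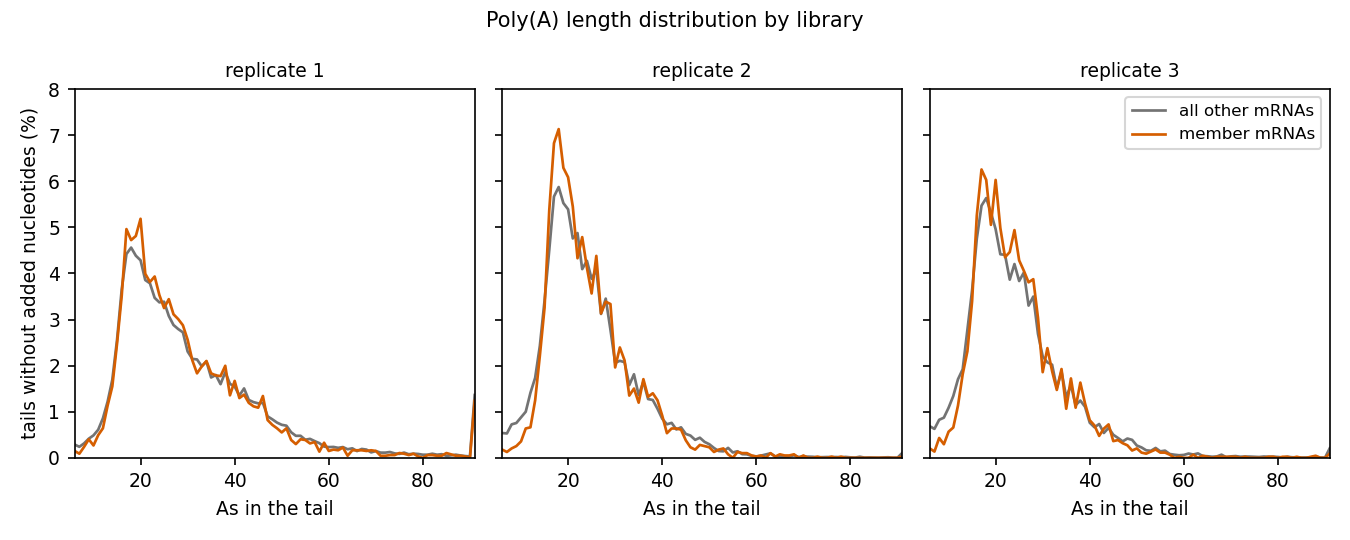
Length distribution of tails without added nucleotides (x axis, number of As, y axis, % of such tails) in replicates 1, 2 and 3 for the list (orange) and all other mRNAs (grey). The list peaked at 20, 18 and 17 As and the others at 18 As in all 3 libraries, and the tails at the right edge are limited by the read at 91 nucleotides.

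Uridylation depended on tail length in the list as elsewhere. It was 32.7% ± 9.2 of tails with 10 to 12 As, 22.1% ± 2.7 at 13 to 15 As, 10.5% ± 1.8 at 16 to 18 As and 2.36% ± 0.40 at 22 to 25 As. All other mRNAs reached 30.4% ± 1.8 at 13 to 15 As and 15.2% ± 2.4 at 16 to 18 As, and the list was below them there in 3 of 3 libraries. The other mRNAs with at least 100 reads had 23.6% ± 3.4 and 10.6% ± 2.5 at these lengths, from which the list differed by -1.53 ± 1.98 and -0.10 ± 0.89 percentage points. Given its own tail lengths, the list would have had 8.66% uridylation at the rates of all other mRNAs, and the observed value was 0.765 ± 0.060 of that. At the rates of the other mRNAs with at least 100 reads the same ratio was 1.04 ± 0.04.

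In 2 length classes the list stood above those mRNAs in 3 of 3 libraries. Tails of 6 to 9 As were uridylated at 29.4% ± 4.0 in the list and 17.9% ± 2.0 in other mRNAs with at least 100 reads, a difference of 11.5 ± 4.6 percentage points. In the list these were 21 of 81, 12 of 42 and 25 of 74 reads in replicates 1, 2 and 3. Only in replicate 1 did the list's Wilson interval (17.6 to 36.4) hold the value of those mRNAs (19.5%). Tails of 19 to 21 As were uridylated at 5.12% ± 1.1 in the list and 4.45% ± 1.0 in those mRNAs, a difference of 0.67 ± 0.26 points. All other mRNAs had 27.5% ± 4.1 and 6.96% ± 1.18 in these classes. They were 2 of 9 length classes compared, picked out once the values were known.

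**Figure D3:**
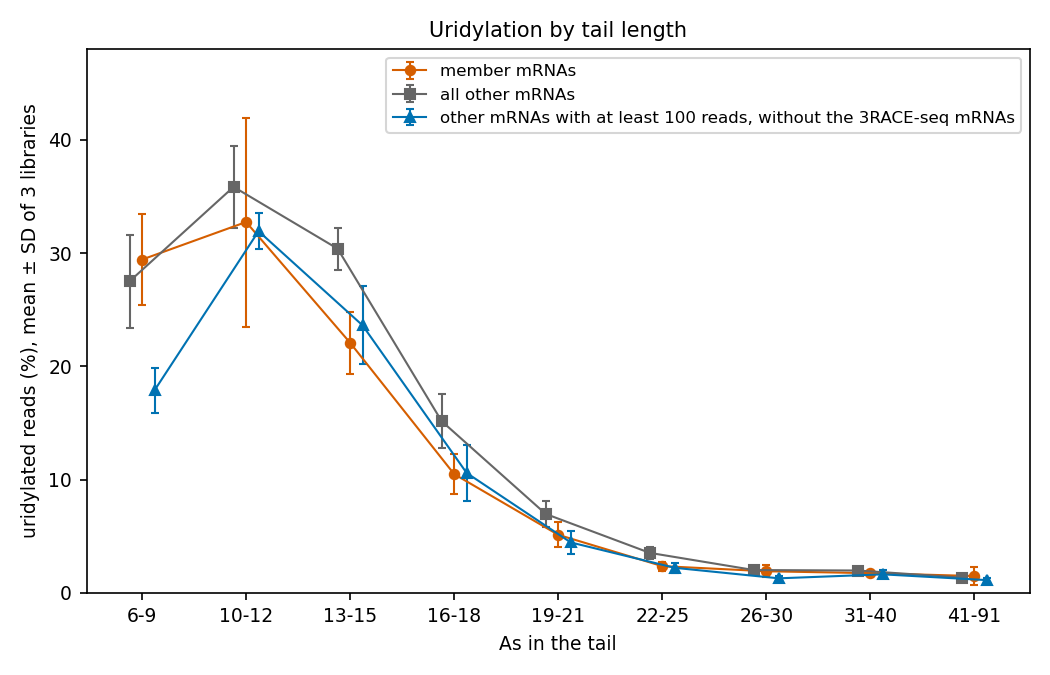
Uridylation (y axis, % of reads, mean and SD of 3 libraries) by number of As (x axis, 9 classes) in the list (orange circles), all other mRNAs (grey squares) and other mRNAs with at least 100 reads without the 3RACE-seq mRNAs (blue triangles). From 13 to 25 As the orange points lie below the grey ones and near the blue ones.

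U extensions of the list were short. A single U was found in 77.7% ± 5.0 of uridylated reads, 2 Us in 18.9% ± 4.2, 3 in 3.09% ± 1.18 and 4 or more in 0.311% ± 0.307. Extensions of 2 or more Us made up 22.3% ± 5.0 of uridylated reads, against 35.9% ± 3.4 in all other mRNAs and 24.7% ± 1.2 in the other mRNAs with at least 100 reads. The list was below all other mRNAs in 3 of 3 libraries, and below those with at least 100 reads in 2 of 3.

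Each mRNA with at least 20 reads was then compared with the rest of the transcriptome (Cochran-Mantel-Haenszel, two-sided, libraries as strata, Benjamini-Hochberg adjustment over all mRNAs tested, threshold 0.05). Of 44 mRNAs of the list, 9 were uridylated below the transcriptome, where 5.58% of all 3439 mRNAs were, and 1 was above, where 9.54% were. All 9 had at least 100 reads, as did 191 of the 192 called below in the whole transcriptome. Among the mRNAs of that depth 9 of 31 were called below and 0 above, and 26.2% and 4.95% of all 728 were, so that the share called below was near its background. The median odds ratio at that depth was 0.620 for the list and 0.609 for all mRNAs.

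Within strata of library and number of As, for tails of 10 to 25 As, 7 of 41 mRNAs were below (5.73% of all 2043) and 1 was above (7.20%). With at least 100 reads these were 7 of 31 below, where 15.5% of 723 were, and 0 above, where 4.84% were. By a library-stratified Wilcoxon test of plain tails, 5 of 44 mRNAs had shorter tails (6.43% of all 3033) and 5 had longer ones (8.34%). With at least 100 reads they were 5 shorter and 3 longer of 31, where 16.3% and 17.0% of 728 were called.

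**Figure D4:**
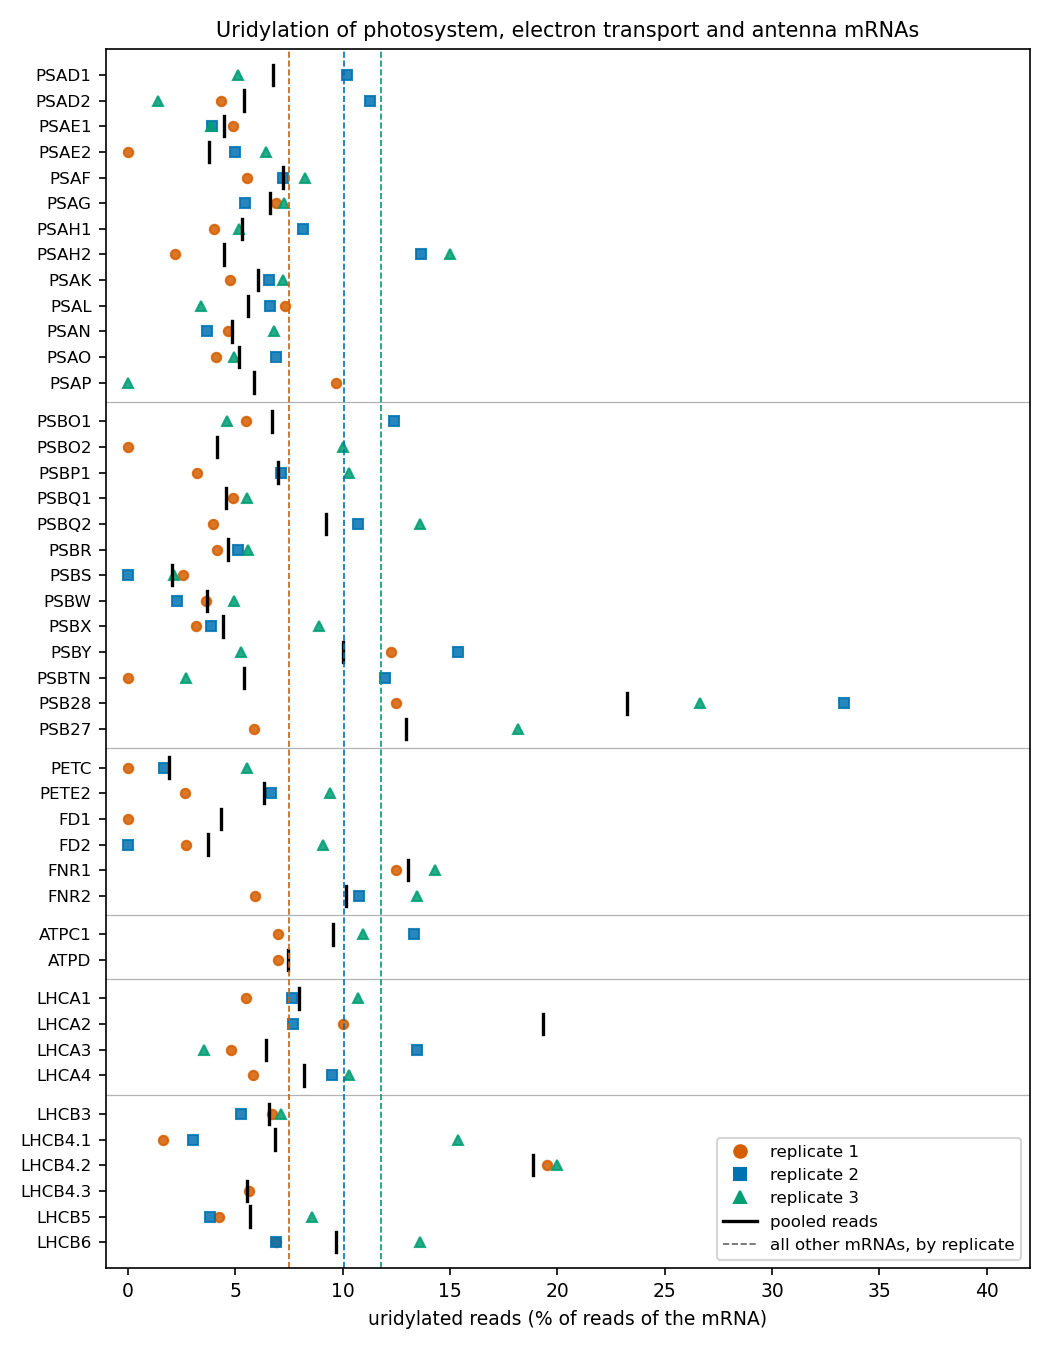
Uridylation (x axis, % of reads) of the 44 mRNAs with at least 20 pooled reads, in blocks from top to bottom for photosystem I, photosystem II, electron carriers, ATP synthase, LHCI and the LHCB proteins. Coloured symbols are single libraries with at least 10 reads, black bars pooled reads, and dashed lines all other mRNAs of each library. Most black bars lie left of the dashed lines, and PSB28 lies farthest to the right.

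The photosystem I mRNAs were uridylated at 4.75%, 6.92% and 5.09% in replicates 1, 2 and 3, a mean of 5.58% ± 1.17 (SD, n = 3). All 13 had an odds ratio below 1, as had 54.1% of all mRNAs tested and 78.3% of those with at least 100 reads. The 2 of 13 that passed the test are to be read against the 5.58% and 26.2% called below at these depths. Both encode subunits at the side of the complex where light-harvesting complex II docks. PSAL (AT4G12800) was uridylated at 7.31%, 6.62% and 3.40% in 219, 438 and 382 reads. Its odds ratio was 0.532 (adjusted p = 5.35e-05), and 0.494 at equal tail length (adjusted p = 0.000283). PSAO (AT1G08380) had 4.11%, 6.90% and 4.95% in 292, 232 and 323 reads, an odds ratio of 0.511 (adjusted p = 0.000218) and 0.525 at equal length (adjusted p = 0.0017).

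Both were below the value of all mRNAs in each of the 3 libraries, but the calls were lost without replicate 3, with adjusted p = 0.243 for PSAL and 0.0869 for PSAO, and at equal tail length 0.353 and 0.0795. Over the 9 alternatives of the unmatched test the adjusted p ranged from 2.98e-06 to 0.243 for PSAL and from 3.48e-05 to 0.101 for PSAO. PSAO also had shorter tails than other mRNAs, with medians of 24, 22 and 23 As (adjusted p = 0.0275). That call was lost without replicate 1 (adjusted p = 0.549) or without replicate 2 (0.131), with As of all tails (0.537) and with limma on library values (0.174), in a range of 0.00164 to 0.549.

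PSAD, PSAE and PSAH are each encoded by a pair of genes. PSAD and PSAE hold the site on the stromal side where ferredoxin docks. PSAD1 (AT4G02770) had 6, 49 and 78 reads and PSAD2 (AT1G03130) 69, 62 and 72, so the ratio of the pair was 0.087 in replicate 1 and 0.790 and 1.08 in replicates 2 and 3. PSAD1 is one of the 22 3′RACE-seq mRNAs, whose share of reads was also lowest in replicate 1, and the part of this in the ratio was not tested. The difference in uridylation between PSAD1 and PSAD2 was -0.56 ± 4.07 percentage points, with no common direction. PSAE1 (AT4G28750) had 184, 51 and 77 reads and PSAE2 (AT2G20260) 28, 20 and 31, so PSAE1 was the more frequently read in every library.

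PSAE1 tails were shorter than PSAE2 tails in 3 of 3 libraries, with medians of 25, 22 and 22 As against 27, 26 and 25, a difference of 3.00 ± 1.00 As. Tails of the other pairs compared had no common direction over the libraries. Uridylation of PSAE1 and PSAE2 differed by 0.42 ± 3.94 percentage points, also with no common direction. PSAH is another subunit of the docking side for light-harvesting complex II. PSAH1 (AT3G16140) had 100, 49 and 58 reads and PSAH2 (AT1G52230) 182, 22 and 20, so the more frequently read gene differed between replicate 1 and the others. PSAH1 was uridylated in 4, 4 and 3 of these reads and PSAH2 in 4, 3 and 3, so that PSAH1 was the higher in replicate 1 and PSAH2 in both others. The photosystem I mRNAs without a call spanned pooled uridylation from 3.80% in PSAE2 to 7.25% in PSAF, the subunit where plastocyanin docks. PSAF, PSAG, PSAK, PSAN and PSAP were among them, and PSAP is also known as the thylakoid curvature protein CURT1B.

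Of the 13 photosystem II mRNAs, 4 were uridylated below the transcriptome and 1 above, where 5.58% and 9.54% of all mRNAs tested were. All 4 called below had at least 100 reads, a depth at which 26.2% of mRNAs were called below. As a group they were uridylated at 4.12%, 7.48% and 7.26%, a mean of 6.29% ± 1.88 (SD, n = 3). PSBW (AT2G30570, chromosome 2, 13019028 to 13020311, TAIR10.1), a small membrane subunit, had 21 of 573, 2 of 87 and 6 of 121 reads uridylated, or 3.71% of 781 (2.60 to 5.28). Its odds ratio was 0.427 (adjusted p = 9.44e-05) and 0.373 at equal tail length (adjusted p = 6.73e-05). Both PSBW calls held under all 8 alternatives, with adjusted p up to 0.0288 and 0.021.

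PSBR (AT1G79040), a subunit near the oxygen-evolving site, had 4.17%, 5.15% and 5.61% in 600, 194 and 196 reads, with an odds ratio of 0.511 (adjusted p = 0.000147). At equal tail length its odds ratio was 0.605 (adjusted p = 0.0266), and this call was lost whichever replicate was left out (adjusted p from 0.074 to 0.212). PSBX (AT2G06520), another small membrane subunit, had 3.17%, 3.90% and 8.89% in 442, 77 and 135 reads, with an odds ratio of 0.496 (adjusted p = 0.00277) and 0.513 at equal length (adjusted p = 0.0134). Both PSBX calls were lost without replicate 1, with adjusted p = 0.332 and 0.310.

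PSBW, PSBR and PSBX also had shorter tails. The medians were 23, 21.5 and 20 As for PSBW (adjusted p = 1.76e-08), 23, 21 and 22 for PSBR (adjusted p = 1.70e-05) and 24, 21.5 and 20 for PSBX (adjusted p = 0.00173). In replicate 1 all 3 were below the 26 As of all other mRNAs. Without replicate 1 none of the 3 passed, with adjusted p = 0.123, 0.420 and 0.0567.

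PSBS (AT1G44575), the protein that switches on the dissipation of excess light energy, had 3 of 116, 0 of 30 and 1 of 46 reads uridylated, or 2.08% of 192 (0.813 to 5.23). The odds ratio was 0.222 (adjusted p = 0.0146), but the call needed all 3 libraries, with adjusted p = 0.0859, 0.0682 and 0.0971 without replicates 1, 2 and 3. At equal tail length PSBS had an odds ratio of 0.287 and did not pass (adjusted p = 0.112). Its 4 uridylated reads are shown because they are all that was found, each with a single U.
PSBS, 1 read: aaaaaaaaaaaaaaU
PSBS, 2 reads: aaaaaaaaaaaaaaaU
PSBS, 1 read: aaaaaaaaaaaaaaaaaU

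PSB28 (AT4G28660, chromosome 4, 14149849 to 14151163, TAIR10.1), a factor for photosystem assembly, was the only mRNA of the list called above the transcriptome in the test not matched for tail length. It had 2 of 16, 4 of 12 and 4 of 15 reads uridylated, or 23.3% of 43 (13.2 to 37.7), above the value of all mRNAs in 3 of 3 libraries. The odds ratio was 2.90 (adjusted p = 0.0366), and 3.61 at equal tail length over 28 reads, which did not pass (adjusted p = 0.0946). With so few reads the call was lost without replicate 2 (adjusted p = 0.402), without replicate 3 (0.178) and in the beta-binomial test (0.0842), in a range of 0.0366 to 1 over 8 alternatives.
PSB28, 1 read: aaaaaaaaaUUU
PSB28, 2 reads: aaaaaaaaaaaaU
PSB28, 1 read: aaaaaaaaaaaaaUU
PSB28, 1 read: aaaaaaaaaaaaaaU
PSB28, 4 reads: aaaaaaaaaaaaaaaaU
PSB28, 1 read: aaaaaaaaaaaaaaaaaU

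These 10 tails of PSB28 have 9 to 17 As, and 8 of them end in a single U. The related assembly factor PSB27 (AT1G03600), named after its values were seen, had 2 of 34, 3 of 9 and 2 of 11 reads uridylated, and did not pass the test.

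The extrinsic proteins PSBO, PSBP and PSBQ shield the oxygen-evolving cluster on the lumenal side. PSBO1 (AT5G66570) had 255, 113 and 152 reads and PSBO2 (AT3G50820) 12, 2 and 10, so that PSBO1 took most reads of the pair in every library. PSBQ1 (AT4G21280) had 61, 8 and 18 reads against 101, 56 and 103 for PSBQ2 (AT4G05180). PSBQ1 was called longer-tailed (adjusted p = 0.000101), with medians of 41, 20.5 and 24 As. Replicate 1 lay far above the 26 As of all other mRNAs and replicates 2 and 3 lay near their 22 As, and without replicate 1 the adjusted p was 0.855. PSBQ2, with medians of 25, 23.5 and 22 As, was uridylated at 3.96%, 10.7% and 13.6%, above PSBQ1 in replicates 2 and 3 and below it in replicate 1.

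**Figure D5:**
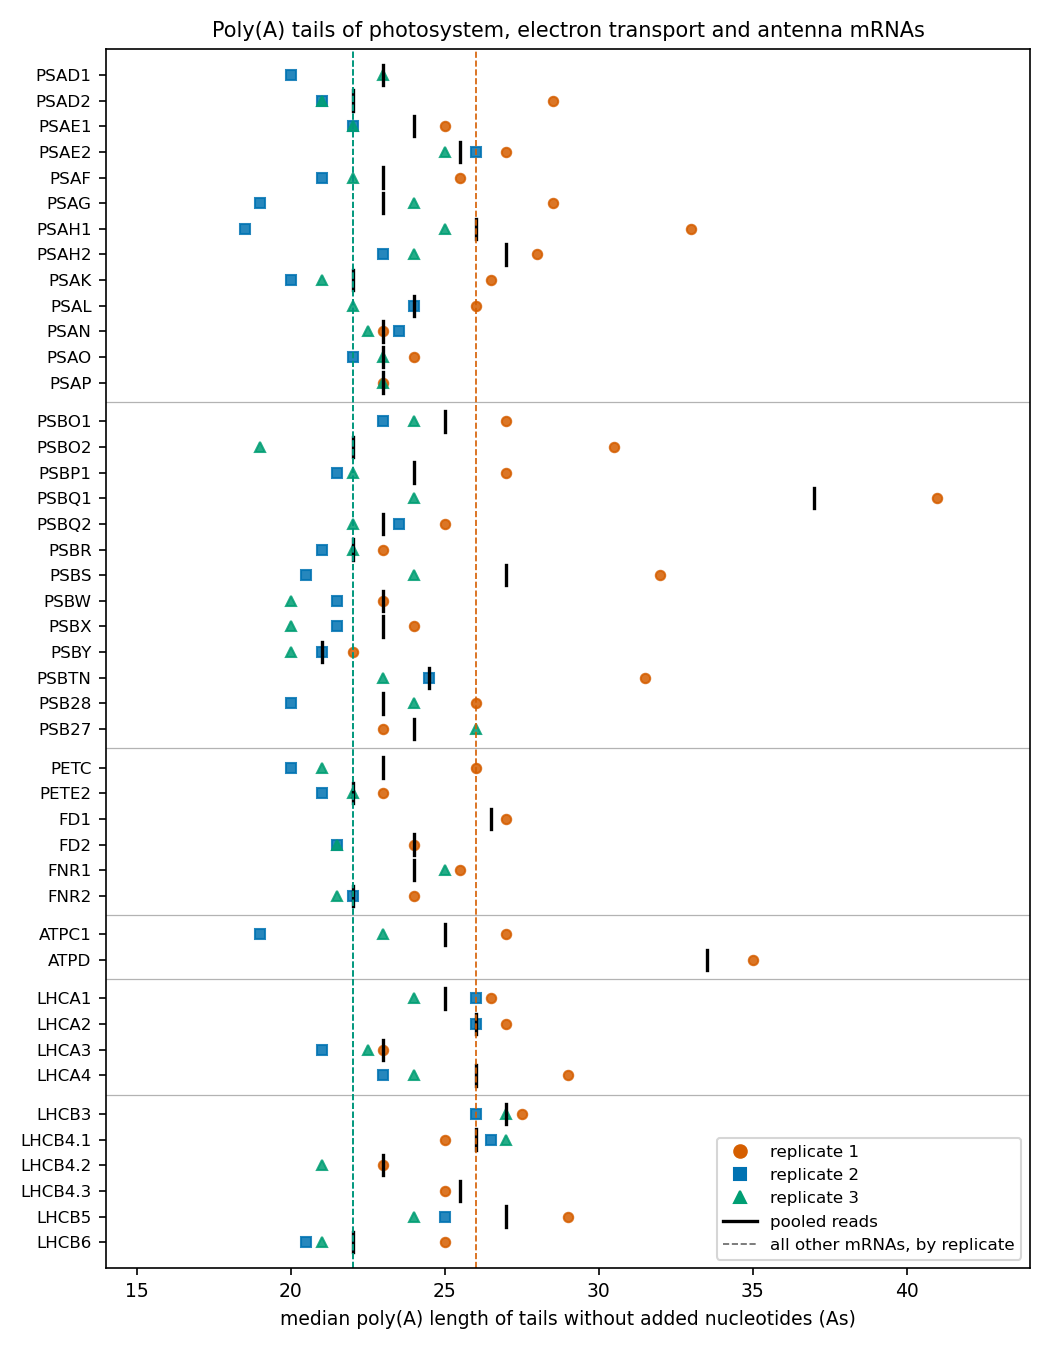
Median number of As in tails without added nucleotides (x axis) of the 44 mRNAs with at least 20 pooled reads, in the same blocks and with the same symbols as the plot of uridylation by mRNA. Dashed lines mark all other mRNAs, at 26 As for replicate 1 and at 22 As for replicates 2 and 3, which coincide. PSBQ1 in replicate 1, at 41 As, lies farthest to the right.

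Among the electron carriers, 2 of 6 tested mRNAs were uridylated below the transcriptome, where 5.58% of all mRNAs tested were. Both had at least 100 reads, a depth at which 26.2% of mRNAs were called below. The group had 2.97%, 6.96% and 9.71%, a mean of 6.55% ± 3.39 (SD, n = 3), the widest spread of the 6 groups. PETC (AT4G03280, chromosome 4, 1440146 to 1441863, TAIR10.1), the Rieske iron-sulphur protein of the cytochrome b6f complex, had the lowest pooled value of the 44 mRNAs with at least 20 reads, with 0 of 94, 1 of 59 and 3 of 54 reads uridylated, or 1.93% of 207 (0.754 to 4.86). Its odds ratio was 0.191 (adjusted p = 0.00499), and 0.193 at equal tail length (adjusted p = 0.015). Both calls were lost without replicate 1, with adjusted p = 0.126 and 0.157, and the second also without replicate 2 (0.119). Its 4 uridylated reads each carried 1 U.
PETC, 1 read: aaaaaaaaaaaU
PETC, 1 read: aaaaaaaaaaaaaaU
PETC, 1 read: aaaaaaaaaaaaaaaU
PETC, 1 read: aaaaaaaaaaaaaaaaU

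Plastocyanin, the soluble copper protein between cytochrome b6f and photosystem I, came almost only from PETE2 (AT1G20340, chromosome 1, 7042046 to 7043392, TAIR10.1). PETE2 had 522, 705 and 564 reads, the most of the list, and PETE1 (AT1G76100) had 8, 0 and 4. PETE2 was uridylated at 2.68%, 6.67% and 9.40%, below the value of all mRNAs in each library. Its odds ratio was 0.630 (adjusted p = 4.49e-05) and 0.608 at equal tail length (adjusted p = 0.000174). PETE2 tails were shorter, with medians of 23, 21 and 22 As (adjusted p = 5.05e-07), a call that held under all 9 alternatives with adjusted p up to 0.0159.

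Ferredoxin and its reductase end the chain. FD2 (AT1G60950) had 184, 14 and 44 reads and FD1 (AT1G10960) had 19, 2 and 2. FD2 was uridylated in 5, 0 and 4 of these reads and missed the threshold (odds ratio 0.427, adjusted p = 0.0846). FNR2 (AT1G20020), a reductase, had 101, 130 and 104 reads with 5.94%, 10.8% and 13.5% uridylated. FNR1 (AT5G66190) had 16, 9 and 21 reads with 12.5%, 11.1% and 14.3%, above FNR2 in 3 of 3 libraries by 2.58 ± 3.46 percentage points, which was less than its spread.

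The ATP synthase was represented by its gamma subunit ATPC1 (AT4G04640) and its delta subunit ATPD (AT4G09650). Neither differed in uridylation by the test. ATPD had longer tails, with medians of 35, 33 and 27 As in 57, 4 and 6 reads (adjusted p = 0.00173), longer by rank in 3 of 3 libraries. That call held under all 7 alternatives that could be run, with adjusted p up to 0.00359, although 57 of the 67 reads came from replicate 1. Too few tails were left to run the test without replicate 1 or limma on library values. Whether the call depends on replicate 1 could therefore not be checked.

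Both antenna groups had the highest mean of library medians in the list. Medians of LHCI were 28, 24 and 24 As and those of the LHCB group 28, 24 and 24 As, a mean of 25.3 ± 2.3 (SD, n = 3) in each. LHCI tails exceeded those of photosystem I by 2, 2 and 1 As, and LHCB tails exceeded those of photosystem II by 3, 2 and 2 As. Each read counted equally in these values. LHCA1 and LHCA4 supplied 1253 and 1401 of 2938 LHCI reads, and LHCB5 supplied 1217 of 2251 LHCB reads. By rank, called or not, 3 of 4 LHCI mRNAs tested were longer and 1 shorter, and 3 of 6 LHCB mRNAs went each way. LHCA3 and LHCB6, named after their values were seen, had medians of 23, 21 and 22.5 As and of 25, 20.5 and 21 As. Tails of over 50 As made up 14.9%, 2.91% and 3.18% of plain LHCI tails, against 7.27%, 1.34% and 0.675% of photosystem I tails. Uridylation of LHCI was 5.59%, 8.90% and 10.4%, above photosystem I in 3 of 3 libraries by 2.71 ± 2.33 percentage points.

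LHCA1 and LHCA4 form a dimer in the LHCI belt. LHCA4 (AT3G47470) had medians of 29, 23 and 24 As in 581, 441 and 379 reads (adjusted p = 1.67e-09). LHCA1 (AT3G54890) had 26.5, 26 and 24 As in 398, 445 and 410 reads (adjusted p = 2.53e-07). Both were longer by rank in 3 of 3 libraries, and both calls held under all 9 alternatives, with adjusted p up to 0.0103 and 0.0132. A plain LHCA4 tail was longer than one of another mRNA in the same library with a probability of 0.554, and a plain LHCA1 tail with 0.549, where 0.5 means no difference.

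Uridylation of LHCA4 was 5.85%, 9.52% and 10.3% and that of LHCA1 5.53%, 7.64% and 10.7%, below all mRNAs in 3 of 3 libraries but not past the threshold (odds ratios 0.871 and 0.810, adjusted p = 0.469 and 0.209). At equal tail length, over 727 and 662 reads with 10 to 25 As, their odds ratios were 1.12 and 1.11 (adjusted p = 0.705 and 0.783). Neither test of uridylation called either mRNA, and the tests cover different sets of reads. LHCA2 (AT3G61470) had 31 reads, of which 15 were also given to locus AT5G28450, and its 19.4% uridylation is uncertain for that reason.

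LHCB5 (AT4G10340), the minor antenna CP26 of photosystem II, was both longer-tailed and less uridylated. Medians were 29, 25 and 24 As (adjusted p = 7.94e-09, up to 0.00148 under all 9 alternatives). Uridylation was 4.27%, 3.83% and 8.57% in 562, 235 and 420 reads (odds ratio 0.584, adjusted p = 0.000244). At equal tail length the odds ratio was 0.667 and no longer past the threshold (adjusted p = 0.067).

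LHCB4 encodes the minor antenna CP29. LHCB4.1 (AT5G01530) had 61, 33 and 52 reads and LHCB4.2 (AT3G08940) 41, 2 and 10. LHCB4.2 was uridylated in 8, 0 and 2 of these reads, or 18.9% of 53 (10.6 to 31.4), with an odds ratio of 2.59 (adjusted p = 0.0622). At equal tail length, over 37 reads, it passed (odds ratio 4.52, adjusted p = 0.00483), but without replicate 1 it had too few such reads to be tested. LHCB4.1 was at 1.64%, 3.03% and 15.4%, so that only its replicate 3 was above the value of all mRNAs.

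The tests above take libraries as strata, but they count each read as an independent value and do not allow for extra spread between libraries. In a beta-binomial test that allows extra spread between libraries, 3 mRNAs of the list stayed below the transcriptome, PSBW, PSBS and PETC. These were 3 of 44, where 4.25% of all 3439 mRNAs were called below. The other 6 had adjusted p = 0.0914 for PSAL, 0.101 for PSAO, 0.0895 for PSBR, 0.152 for PSBX, 0.180 for PETE2 and 0.129 for LHCB5.

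Other photosynthesis mRNAs were called as follows in the same test of uridylation, in which 5.58% of all mRNAs were below and 9.54% above. For LHCB1 and LHCB2, the major antenna, 1 of 8 was below and 2 were above, with pooled values from 0 of 20 reads in LHCB1.4 to 115 of 769 in LHCB2.1. For Rubisco and the Calvin cycle 4 of 19 were below and 1 above, with values from 1.82% in FBA2 to 15.2% in HCEF1. For other thylakoid factors 1 of 16 was below and 0 above, with values from 3.23% in PPL2 to 18.2% in FDC1. Among LHCB1 and LHCB2, and in Rubisco and the Calvin cycle, many reads were given to more than 1 gene and counted for each. The calls of related genes in these lists are therefore not independent of each other. The median odds ratios were 0.919, 0.668 and 0.790, against 0.634 for the present list and 0.908 for all mRNAs tested. With at least 100 reads the last 2 values were 0.620 and 0.609, as given above, and the other lists were not compared at that depth. As a whole LHCB1 and LHCB2 had 11.1% ± 1.9 uridylation, above the present list in 3 of 3 libraries.

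The order of the mRNAs within the list was only weakly shared between libraries. For 29 mRNAs each library held 20 reads or more. Over these, Spearman's rho of uridylation was 0.38 for replicates 1 and 2, 0.01 for 1 and 3, and 0.21 for 2 and 3. Over all 609 such mRNAs it was 0.47, 0.41 and 0.45. For the median tail the values of the list were -0.07, 0.52 and 0.39. These are descriptions across genes, which are not independent replicates, and each point rests on as few as 20 reads.

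The mRNAs of the list were short. In the RefSeq annotation of TAIR10.1 their median length was 1170 nucleotides, against 1431 for all mRNAs tested, with a median 3′ UTR of 246 against 296 nucleotides and 2 against 3 introns. The canonical hexamer AATAAA, searched on the sense strand in the last 50 bases of the longest annotated mRNA, was found in 3 of 48, or 6.25%, and in 337 of 3366 of all mRNAs tested whose 3′ UTR was long enough. The 48 genes lie on all 5 chromosomes, with 21 on chromosome 1.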

How the data were processed

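TAIL-seq libraries of ribodepleted flower RNA from 3 biological replicates were analysed. The authors removed PCR copies by the first cycles of the second read, aligned the first read to TAIR10 (HISAT2 2.1.0, Bowtie2), assigned it with BEDTools 2.17.5 and kept cytosolic mRNAs. The deposited table holds, per read and gene, tail lengths in nucleotides and the class of added nucleotide, not normalized and not pooled by the authors. Stretches under 6 As were not recorded, and tails were limited at 91 nucleotides. Added U is recorded as A in the second read and was printed as U.

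Of 455742 rows, 172 repeats of a read and gene were dropped, which left 442916 reads. Of the list's reads, 17 were given to more than 1 gene. Percentages have Wilson 95% intervals, and 0 reads were taken to allow up to 3. Tests across all mRNAs with at least 20 pooled reads (tails) were two-sided: Cochran-Mantel-Haenszel with continuity correction, the same within strata of library and number of As, and van Elteren's stratified Wilcoxon test with normal approximation on reads, each with Benjamini-Hochberg adjustment. They count each read as a value, and reads are not biological replicates. A beta-binomial test and limma 3.58.1 (R 4.3.3) on library values were alternatives. Tests were checked on simulated data without extra spread between libraries, so the check does not cover such spread. Python 3.11.15, pandas 2.3.3 and scipy 1.17.1 were used.

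Members and lists were chosen with earlier results of these data known. Named were mRNAs past a threshold, both genes of 9 pairs and the 5 with most reads. Complexes and pairs (5 of 9 with at least 5 reads of both genes in every library) were compared within libraries without p. Alternatives left out each replicate, shared reads or the 22 3RACE-seq mRNAs, required 2 Us, counted As of all tails, weighted members equally, set minima of 10 or 50 reads, or took lengths of 6 to 40 As.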

Additional observations from a re-analysis of the deposited data

How the results depend on the processing

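No paired analysis was possible because the samples form 1 group. Requiring at least 2 Us lowered uridylation of the list to 1.53% and its difference from all other mRNAs to -2.03 percentage points, and gave 1.04% for photosystem I, 1.49% for photosystem II, 1.81% for electron carriers, 3.15% for ATP synthase, 1.84% for LHCI and 1.76% for LHCB, by construction. It left 0 mRNAs called above, where 5.64% of all mRNAs were, and 0 at equal tail length, where 4.21% were. The difference from other mRNAs was -3.67 points without the 22 3RACE-seq mRNAs and turned to 0.19 when only mRNAs with at least 100 reads were kept besides, both alternatives chosen after seeing the data. With equal weight of mRNAs, photosystem II was at 8.50% and LHCI at 11.6%. The LHCI value includes LHCA2, with a mean of 22.6% on 31 reads, of which 15 were shared. LHCA1, LHCA3 and LHCA4 had means of 7.97%, 7.28% and 8.56%. The photosystem II value includes PSB27 and PSB28, with means of 19.1% and 24.2% on 54 and 43 reads. The beta-binomial test called 3 below and 0 above, where 4.25% and 6.48% of all mRNAs were. Without the 22 mRNAs 0 were above, where 8.57% were. With As of all tails, 3 mRNAs were shorter and 10 longer, where 6.51% and 8.14% of all 3439 were. The cause was not tested. Leaving out 1 replicate gave 6 to 8 mRNAs below, where 4.74% to 4.94% of all mRNAs were. It gave 0 to 1 above, where 6.697% to 7.52% were. Then 1 to 6 were shorter (1 without replicate 1), where 4.77% to 7.39% were, and 5 to 7 longer, where 7.79% to 8.42% were. At equal length 4 to 5 were below, where 4.498% to 5.73% were, and 0 to 1 above, where 4.88% to 5.44% were. Without replicate 1, 39 mRNAs of the list were tested for uridylation, 35 for tail length and 33 at equal length. With all replicates these were 44, 44 and 41, so the counts are not directly comparable. A minimum of 50 reads left 0 above at equal length, where 5.89% of all mRNAs were, since LHCB4.2 was then not tested. Depth limits single mRNAs: 13 of the 44 had under 100 reads.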

Other observations

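Added G or C was found in 0.782% ± 0.180 of reads of the photosynthetic mRNAs and 0.798% ± 0.167 of all other mRNAs (SD, n = 3), a difference smaller than the spread between libraries. Uridylated tails of the list had a median of 16.3 ± 0.6 As, against 15 As in every library for all other mRNAs and 16 for other mRNAs with at least 100 reads. Tails of 10 to 25 As were uridylated at 9.41% ± 1.98 in the list, 14.2% ± 1.9 in all other mRNAs and 9.38% ± 1.94 in other mRNAs with at least 100 reads.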
